A study of Homo sapiens with 18 samples.

Results

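The genes described here are the 36 rows of the expression table that carry the names of human aminoacyl-tRNA synthetases, out of 26249 genes. The rows were matched by gene name, and the list was chosen with earlier results of these data known. By the naming rule used, a symbol ending in 2 is a mitochondrial enzyme, which gave 16 mitochondrial genes and 20 cytosolic ones. The cytosolic set includes GARS and KARS, whose genes also give rise to the mitochondrial glycyl and lysyl enzymes, and both subunit genes of the cytosolic phenylalanyl enzyme, FARSA and FARSB.

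Polyadenylated RNA was sequenced from cultures of 2 established human pancreatic ductal adenocarcinoma (PDAC) lines, PATU-8902 and PATU-8988T. Each line contributed 3 libraries after 24 h with 2.5 µM DCLK1-IN-1, 3 after 6 h with the same dose, and 3 after 24 h with the solvent DMSO, 18 in all. DCLK1-IN-1 is a small-molecule inhibitor of the kinase DCLK1, and no genetic change was made to either line. No 6 h DMSO group was used, so the 6 h libraries are set against DMSO at 24 h and a change of the untreated culture over time cannot be told apart from the inhibitor. The series record calls the libraries biological triplicates.

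Aminoacyl-tRNA synthetases join each amino acid to its tRNA at the cost of ATP, and so supply both the cytosolic and the mitochondrial ribosome. All of these enzymes are encoded in the nucleus, and most amino acids have 1 enzyme for each compartment. Several cytosolic enzymes are held together with the scaffold proteins AIMP1, AIMP2 and EEF1E1 in the multisynthetase complex. The transcription factor ATF4, made when amino acids are short or the endoplasmic reticulum is stressed, is known to raise many cytosolic synthetase genes through a composite C/EBP-ATF element in their promoters.

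The 8 letters TGATGCAA, the core of that element, were searched on either strand in RefSeq promoters (build GRCh38.p14, from 250 bases before to 50 after the gene's start). Of the 36 genes, 30 had an entry, and DARS, LARS, VARS, YARS, AARS2 and VARS2 are named only. The letters were present in 6 of 16 cytosolic promoters (37.5%), in 0 of 14 mitochondrial ones (0%) and in 252 of 27305 promoters of all genes (0.923%). With the sixth letter free, TGATGNAA, the counts were 6 of 16 cytosolic, 1 of 14 mitochondrial and 1003 of all promoters (3.67%). The 6 matches are shown because they mark the cytosolic genes in which a known ATF4-type element can be read directly. Each line gives 30 bases 5′ to 3′ on the strand of the gene, with the match in capitals, as TGATGCAA or as its reverse complement TTGCATCA.
AARS: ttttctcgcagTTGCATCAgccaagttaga
CARS: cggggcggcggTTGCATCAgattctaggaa
IARS: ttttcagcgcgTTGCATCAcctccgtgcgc
MARS: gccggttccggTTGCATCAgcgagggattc
NARS: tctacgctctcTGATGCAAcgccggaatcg
TARS: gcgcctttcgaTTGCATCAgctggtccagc

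These lie at chr16:70289675-70289704 (minus strand), chr11:3057407-3057436 (minus), chr9:92293692-92293721 (minus), chr12:57488053-57488082 (plus), chr18:57621804-57621833 (minus) and chr5:33440956-33440985 (plus), in the order of the lines above. Counted from the gene's start, the match covered positions -187 to -180 in AARS, -13 to -6 in IARS, -4 to 4 in MARS, -2 to 6 in CARS, 3 to 10 in TARS and 15 to 22 in NARS. In 5 of the 6 promoters the match was thus within 22 bases of the start, and in NARS and TARS it lay wholly inside the first transcribed bases. A match describes these letters and not a bound site.

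A second promoter is shown because it serves a pair of members. HARS, the cytosolic histidyl enzyme, and HARS2, its mitochondrial counterpart, are transcribed away from each other on chromosome 5, and their RefSeq starts are 85 bases apart. The 84 bases between them, at chr5:140691371-140691454 on the plus strand and 59.5% G or C, read as follows.
HARS to HARS2: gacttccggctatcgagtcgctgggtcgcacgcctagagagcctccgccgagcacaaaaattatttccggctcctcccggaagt

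The values are FPKM, fragments counted per unit of transcript length and of library, which the authors normalised on added ERCC spike-in RNA. The sum of FPKM over genes ran from 263339 to 764363 between libraries and the median of the 11477 genes tested from 6.12 to 17.4. The first DMSO library of PATU-8988T had the lowest median, 6.12, against 12.1 and 10.2 in DMSO replicates 2 and 3. Each difference is therefore given as deposited and after median-centring, in which the log2 values of a library are moved by 1 constant until the tested genes have the same median everywhere. Of 6 epithelial markers, KRT8, KRT18 and EPCAM were present in both lines, the lowest library having 168, 201 and 9.67 FPKM, whereas KRT19, KRT7 and CDH1 came down to 0.0689, 0.107 and 0.0783 FPKM in PATU-8988T, in effect absent. In bulk cultures such as these, fewer cells of a kind and less RNA per cell cannot be told apart. Of 16 markers of other cell types only CD68 had a mean of at least 1 FPKM.

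All 36 genes were expressed. Mean FPKM over the 18 libraries ran from 26.1 for VARS to 387 for TARS among the cytosolic genes, with a median of 79.1, and from 2.45 for PARS2 to 99.4 for IARS2 among the mitochondrial ones, with a median of 10.6. The median tested gene had 11.9 FPKM, which 20 of 20 cytosolic and 8 of 16 mitochondrial genes exceeded. Levels are per length, so genes can be set side by side on this scale.

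After TARS, the threonyl enzyme, the highest cytosolic genes were KARS (lysyl, 300.1 FPKM), IARS (isoleucyl, 213 FPKM), GARS (glycyl, 144 FPKM), RARS (arginyl, 126 FPKM) and EPRS (111 FPKM), the last a single chain that carries both the glutamyl and the prolyl activity. The lowest were VARS (valyl), QARS (glutaminyl, 35.2 FPKM), FARSA (35.6 FPKM) and CARS (cysteinyl, 36.6 FPKM). TARS ranged from 233 to 550 FPKM and KARS from 150 to 507 FPKM, but within each of the 18 libraries TARS lay above KARS, KARS above IARS and IARS above GARS. Of the 19 neighbouring pairs in the order of cytosolic means, 6 kept their order in every library, as did 2 of the 15 mitochondrial ones. Most neighbours in either order can therefore not be ranked over all 18 libraries together. Some orders depended on the line: GARS lay above RARS in all 9 PATU-8988T libraries and below it in all 9 PATU-8902 libraries.

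Only 4 mitochondrial genes exceeded the lowest cytosolic one: IARS2, YARS2 (tyrosyl, 42.3 FPKM), RARS2 (arginyl, 40.4 FPKM) and NARS2 (asparaginyl, 35.4 FPKM). At the other end stood PARS2 (prolyl), AARS2 (alanyl, 3.49 FPKM), VARS2 (valyl, 5.01 FPKM) and FARS2, the single-chain mitochondrial phenylalanyl enzyme, with 5.23 FPKM. Within each library the median cytosolic gene was 5.40 to 8.84 times the median mitochondrial one.

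**Figure D1:**
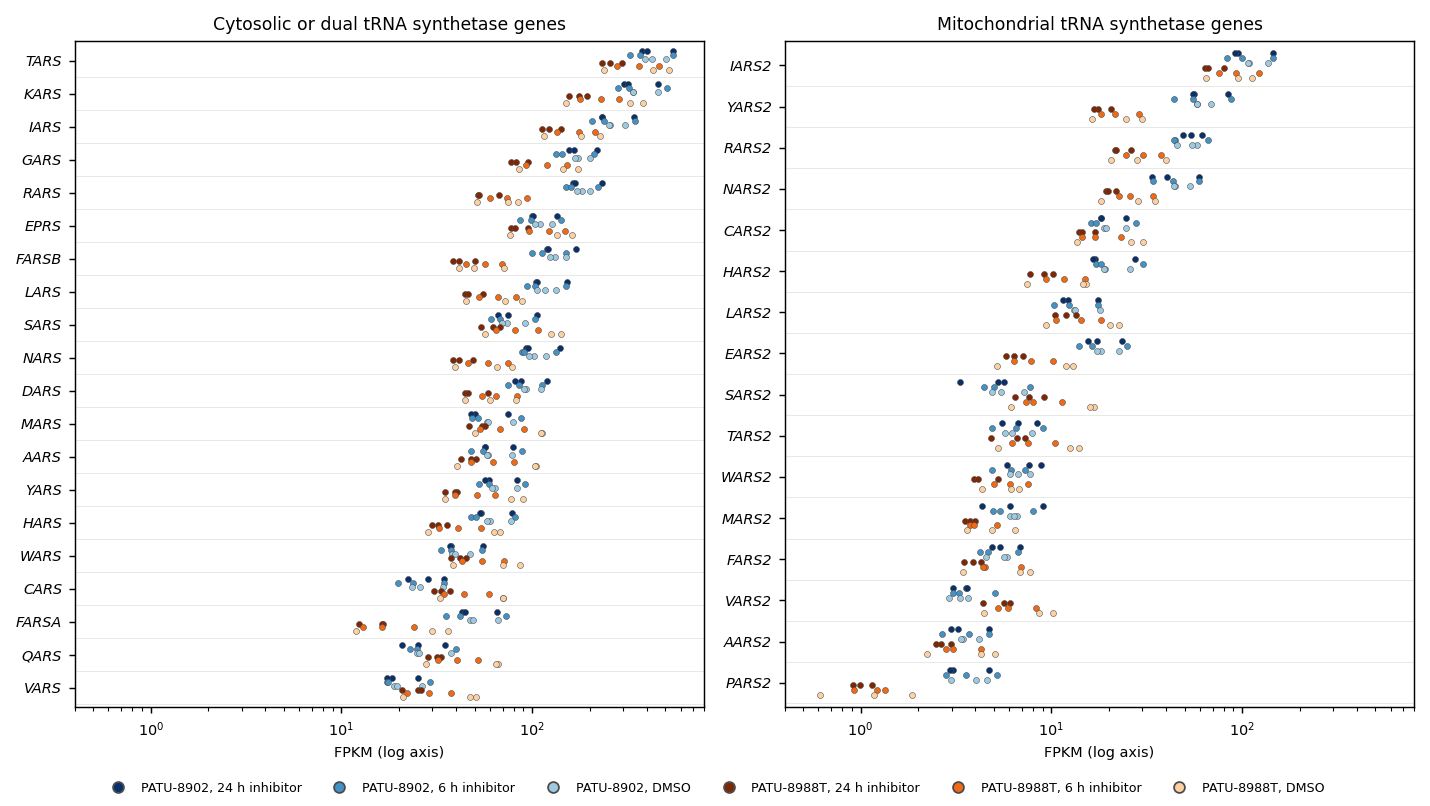
FPKM (log axis) of the 20 cytosolic or dual genes (left) and the 16 mitochondrial genes (right) in all 18 libraries. Each point is 1 library, coloured by line and treatment. Cytosolic means run from 26.1 to 387 FPKM and mitochondrial means from 2.45 to 99.4 FPKM.

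The first question is whether the inhibitor altered these genes. No synthetase gene passed the test against DMSO in either line or at either time (limma on log2(FPKM + 1), Benjamini-Hochberg adjusted p below 0.05 over 11477 genes), as deposited or after centring. The background was also low. As deposited, the percentage of all tested genes that passed was 0.113% in PATU-8902 at 24 h, 0.00871% in PATU-8902 at 6 h, 0% in PATU-8988T at 24 h and 0% in PATU-8988T at 6 h. After centring it was 0.444%, 0.113%, 0% and 0.0784% in the same order. Without adjustment, 0, 0, 6 and 0 members had a p below 0.05 in the deposited values, and 4, 1, 15 and 15 in the centred ones, in that order. Over all tested genes the percentages with such a p were 1.46%, 0.688%, 5.99% and 2.5% in the deposited values and 7.72%, 2.35%, 16.8% and 29.5% in the centred ones.

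Fitted with all 18 libraries, the intervals of the change were narrow after centring. The 95% interval of the log2 change lay wholly within 1.5-fold for 35 of 36 genes in PATU-8902 at 24 h, 36 at 6 h, and 34 in PATU-8988T at each time. As deposited the intervals are wider: they lay within 2-fold for 36, 36, 14 and 34 genes in the same 4 comparisons. In PATU-8988T both sets of intervals depend on the first DMSO library. Without it, the largest centred changes in that line were -0.53 ± 0.09 at 24 h (AARS) and -0.63 ± 0.12 at 6 h (FARSA), the latter beyond 1.5-fold. In the deposited values, no member had its inhibitor libraries all above or all below the DMSO libraries in any of the 4, where 6.49%, 2.04%, 1.32% and 2.05% of all tested genes did.

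In PATU-8902 at 24 h, the methionyl gene MARS had 50.1, 48.0 and 74.7 FPKM with the inhibitor, against 79.4, 57.8 and 58.6 FPKM in DMSO. The ranges overlapped, and the centred log2 change was -0.25 ± 0.11 (SE, n = 3 each, limma adjusted p = 0.634). SARS2, the mitochondrial seryl gene, had the largest centred change there, -0.33 ± 0.13, from 5.25, 3.31 and 5.64 FPKM against 7.15, 5.43 and 4.89 FPKM in DMSO. The smallest limma p belonged to IARS2, at -0.17 ± 0.06 with an adjusted p of 0.597. After centring, 14 of 36 genes (38.9%) had all 3 inhibitor libraries below all 3 DMSO libraries and 0 had them above, against 6.99% and 6.11% of all tested genes.

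At 6 h in PATU-8902 the median centred change over the 20 cytosolic genes was -0.04 and over the 16 mitochondrial genes -0.01, against -0.004 over all tested genes. GARS had the smallest p there: 134, 211 and 143 FPKM with the inhibitor against 201, 175 and 167 FPKM in DMSO, a centred change of -0.14 ± 0.05 (limma adjusted p = 1.00). VARS2 went the other way at 0.18 ± 0.10, and its centred libraries lay above those of DMSO without overlap. It was the only member to do so (2.78%, against 3.67% of all tested genes), while DARS, FARSB and GARS lay below (8.33%, against 4.37%).

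In PATU-8988T at 24 h, GARS had 77.6, 82.7 and 95.1 FPKM with the inhibitor, against 85.5, 173 and 146 FPKM in DMSO. Its centred change was -0.25 ± 0.05 (limma adjusted p = 0.295). CARS had 30.7, 33.1 and 37.3 FPKM with the inhibitor, against 33.0, 70.3 and 70.3 FPKM in DMSO, and SARS, the cytosolic seryl gene, 53.8, 62.2 and 68.2 FPKM against 56.8, 142 and 126 FPKM. In each of these genes the first DMSO library sat with the inhibitor libraries and the other 2 stood above them. The centred changes were -0.34 ± 0.10 for CARS and -0.36 ± 0.10 for SARS. MARS, the alanyl gene AARS and the tyrosyl gene YARS had similar changes, of -0.35, -0.34 and -0.34.

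Over the 20 cytosolic genes the median centred change in PATU-8988T at 24 h was -0.24 and over the mitochondrial genes -0.02, against 0.003 over all tested genes. The 12 cytosolic genes listed as ATF4-linked had a median of -0.23, with 12 of 12 below 0, and the 8 other cytosolic genes one of -0.24, with 5 of 8 below 0. After centring, CARS, EPRS, GARS, IARS, LARS (leucyl), NARS (asparaginyl), TARS and CARS2 had all inhibitor libraries below all DMSO libraries, 22.2% of the members against 3.98% of all tested genes. In 0 members were they above, against 3.58%.

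At 6 h in PATU-8988T the centred changes ran in both directions. FARSA had the largest, -0.42 ± 0.15, with 12.9, 16.3 and 24.0 FPKM after the inhibitor against 11.96, 36.1 and 30.0 FPKM in DMSO. CARS2, the mitochondrial cysteinyl gene, had the smallest p, at -0.28 ± 0.07 (limma adjusted p = 0.0836), from 14.5, 16.9 and 23.1 FPKM against 13.6, 30.3 and 26.3 FPKM. VARS stood at -0.33 ± 0.10 and SARS2 at -0.38 ± 0.13. On the positive side, RARS and the aspartyl gene DARS each stood at 0.14 and IARS2 at 0.12, each with its centred libraries above those of DMSO without overlap, and those of VARS and CARS2 lay below. Such separation was found in 10.2% of all tested genes above and 9.51% below.

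All of these PATU-8988T values rest on the DMSO libraries. Without the first DMSO library, 26 members passed as lower at 24 h as deposited, where 6514 of all tested genes passed, and after centring 20 members passed at 24 h (19 lower, 1 higher, with 4680 genes in all) and 20 at 6 h (17 lower, 3 higher, with 4884 genes in all). With the first library as the only DMSO library, the deposited changes of CARS, SARS, YARS and MARS at 24 h became 0.025, 0.10, 0.13 and 0.067. The 3 libraries are labelled alike, so which of them is typical cannot be told apart.

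**Figure D2:**
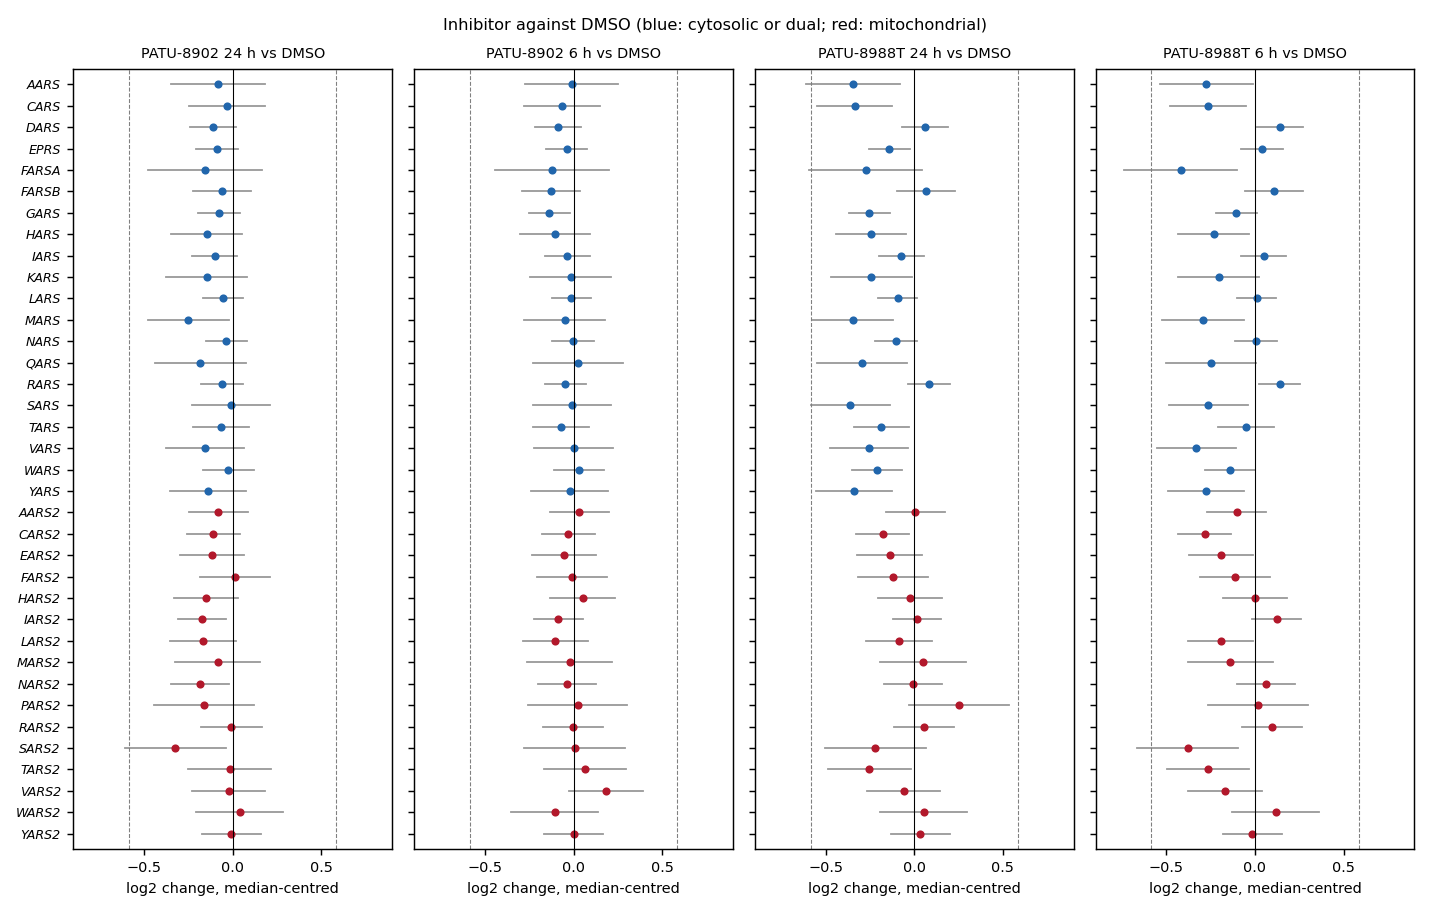
Median-centred log2 change of each gene with its 95% interval in the 4 comparisons of inhibitor with DMSO (blue: cytosolic or dual, red: mitochondrial). Dashed lines mark 1.5-fold. No gene passed the adjusted threshold, and most PATU-8988T cytosolic points at 24 h lie left of 0.

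The times and the lines were also set against each other. At 24 h against 6 h of inhibitor, 0 members passed in PATU-8902 (background 0% as deposited and 0.244% centred) and 0 in PATU-8988T (0% and 0%). Without adjustment, the members with p below 0.05 numbered 0 and 0 in the deposited values, and 2 and 2 after centring. The difference between the lines in the inhibitor's effect, tested as an interaction in limma, passed for 0 members at 24 h (0.00871% and 0.227%) and 0 at 6 h (0% and 0%). Without adjustment, 0 and 0 members had a p below 0.05 in the deposited values and 4 and 7 after centring. Without the first PATU-8988T DMSO library, 3 members at 24 h and 14 at 6 h passed this test after centring, where 636 (5.54%) and 2308 (20.1%) of all tested genes passed, and 0 and 0 members as deposited.

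The second question is how the lines compare. Here the synthetase genes differed widely. As deposited, 17 of 36 (47.2%) passed between PATU-8902 and PATU-8988T in DMSO, 13 higher in PATU-8902 and 4 lower, where 54.2% of all tested genes passed (41.8% higher, 12.4% lower). After centring, which moved the median difference of all genes from 0.45 to -0.05, 31 members (86.1%) passed, 13 higher and 18 lower, where 72.2% of all tested genes passed (34.4% higher, 37.8% lower). The 17 calls made as deposited were made in the same direction after centring. Fitted on the DMSO groups alone, 9 members passed as deposited, and with no filter on low genes 16 passed after centring. With no filter, the median used for centring also includes unexpressed genes. Shares of all tested genes are not given for these fits, so their counts do not describe the members in particular. The lines differed at most tested genes, and the share of synthetase genes is to be read against that.

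Of the 13 genes higher in PATU-8902 under either scaling, 7 were cytosolic and 6 mitochondrial. RARS had 201, 183 and 172 FPKM in PATU-8902, against 51.1, 84.2 and 74.8 FPKM in PATU-8988T. Its log2 difference was 1.42 ± 0.25 as deposited (limma adjusted p = 0.000104) and 0.92 ± 0.06 centred. YARS2 had 68.9, 57.9 and 58.3 FPKM in PATU-8902, against 16.3, 29.9 and 24.6 FPKM in PATU-8988T, a difference of 1.39 ± 0.28 as deposited and 0.88 ± 0.08 centred. In both genes every PATU-8902 library lay above every PATU-8988T library as deposited, as in all 13 higher members. These made up 36.1% of the 36 members, a smaller share than the 46.5% of all tested genes with such separation.

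Both subunits of the cytosolic phenylalanyl enzyme were among them. FARSB, the beta subunit, had 150, 131 and 123 FPKM in PATU-8902, against 41.3, 70.9 and 49.4 FPKM in PATU-8988T, and FARSA, the alpha subunit, 65.8, 47.2 and 49.1 FPKM against 11.96, 36.1 and 30.0 FPKM. The differences as deposited were 1.34 ± 0.25 and 1.15 ± 0.35. PARS2, the lowest member, had 4.62, 2.97 and 4.03 FPKM in PATU-8902, against 0.612, 1.85 and 1.17 FPKM in PATU-8988T, a difference of 1.16 ± 0.22 as deposited. The other genes were EARS2 (mitochondrial glutamyl), RARS2, LARS, NARS, NARS2, HARS2, IARS and DARS, with differences from 0.69 to 0.96 as deposited and 0.19 to 0.46 centred. The deposited calls of IARS and DARS were each kept in 1 of 6 fits that left out 1 library, and neither gene passed after the correction for GC content described at the end (limma adjusted p = 0.15 and 0.60).

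In the other direction, 4 genes were lower in PATU-8902 under both scalings. CARS had 33.9, 23.4 and 25.8 FPKM in PATU-8902, against 33.0, 70.3 and 70.3 FPKM in PATU-8988T, and the first PATU-8902 library overlapped the first PATU-8988T one. Its log2 difference was -0.97 ± 0.30 as deposited (limma adjusted p = 0.0102) and -1.47 ± 0.10 centred. VARS2 had 3.65, 2.90 and 3.33 FPKM in PATU-8902, against 4.46, 10.2 and 8.60 FPKM in PATU-8988T, with no overlap (-0.97 ± 0.24 as deposited, -1.47 ± 0.10 centred). It was the only member lower without overlap as deposited, where 10.8% of all tested genes were. VARS and SARS2 stood at -0.76 ± 0.30 and -0.93 ± 0.30 as deposited. Both valyl genes, cytosolic and mitochondrial, were thus lower in PATU-8902, but VARS with limits. Its first PATU-8902 library (26.6 FPKM) lay above the first PATU-8988T one (20.9 FPKM). The deposited call of VARS was kept in 2 of 6 fits that left out 1 library, and that of SARS2 in 3. VARS did not pass as deposited between the lines in the inhibitor libraries (-0.46 at 6 h and -0.25 at 24 h).

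Reads of SARS2 may belong partly to its neighbours: in GENCODE v29, 67.4% of its exon bases are shared with a readthrough transcript on the same strand and 15.8% with MRPS12 on the opposite strand. Its value is uncertain for that reason.

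The remaining 14 lower calls were made only after centring. The largest were QARS at -1.26, WARS (tryptophanyl) at -1.06, TARS2 at -1.02, MARS at -0.91, SARS at -0.86 and AARS at -0.74. For YARS, TARS and WARS2 the sign depended on the scaling, with centred differences of -0.35, -0.28 and -0.27 and deposited ones of 0.15, 0.22 and 0.23. The genes MARS2, HARS, IARS2, GARS and KARS did not pass under either scaling, KARS having 459, 339 and 338 FPKM in PATU-8902 against 150, 379 and 325 FPKM in PATU-8988T.

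The lines were also compared in the inhibitor libraries, whose group means do not use the DMSO libraries, though the fit takes its variance from all 18. As deposited, 20 members passed at 24 h (20 higher, 0 lower, background 71.4%, with 63% higher and 8.32% lower) and 13 at 6 h (11 higher, 2 lower, background 51.5%, with 39.9% and 11.6%). After centring, 28 passed at 24 h (10 higher, 18 lower, background 71.6%, with 33.4% and 38.2%) and 29 at 6 h (11 higher, 18 lower, background 69.8%, with 34% and 35.8%). In all 3 sets of libraries, EARS2, FARSA, FARSB, LARS, NARS, RARS, RARS2 and YARS2 were higher in PATU-8902 under both scalings, and HARS2, NARS2 and PARS2 as deposited. Lower in all 3 sets after centring were AARS, AARS2, CARS, CARS2, EPRS, FARS2, LARS2, MARS, QARS, SARS, SARS2, TARS2, VARS, VARS2, WARS and WARS2, whereas 0 genes were lower in all 3 as deposited. At 24 h the calls of 2 members reversed with the scaling: WARS2 was called higher as deposited (0.63) and lower centred (-0.29), and MARS2 higher as deposited (0.60) and lower centred (-0.31). At 6 h the deposited count was 8 without PATU-8902 replicate 2, 8 without PATU-8988T replicate 1 and 6 without PATU-8988T replicate 2. Over all fits that left out 1 library there, 42.1% to 55.6% of all tested genes passed. The calls common to the 3 sets make up 66.7% of the members after centring, against 59% of all tested genes, and 30.6% against 44.2% as deposited.

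**Figure D3:**
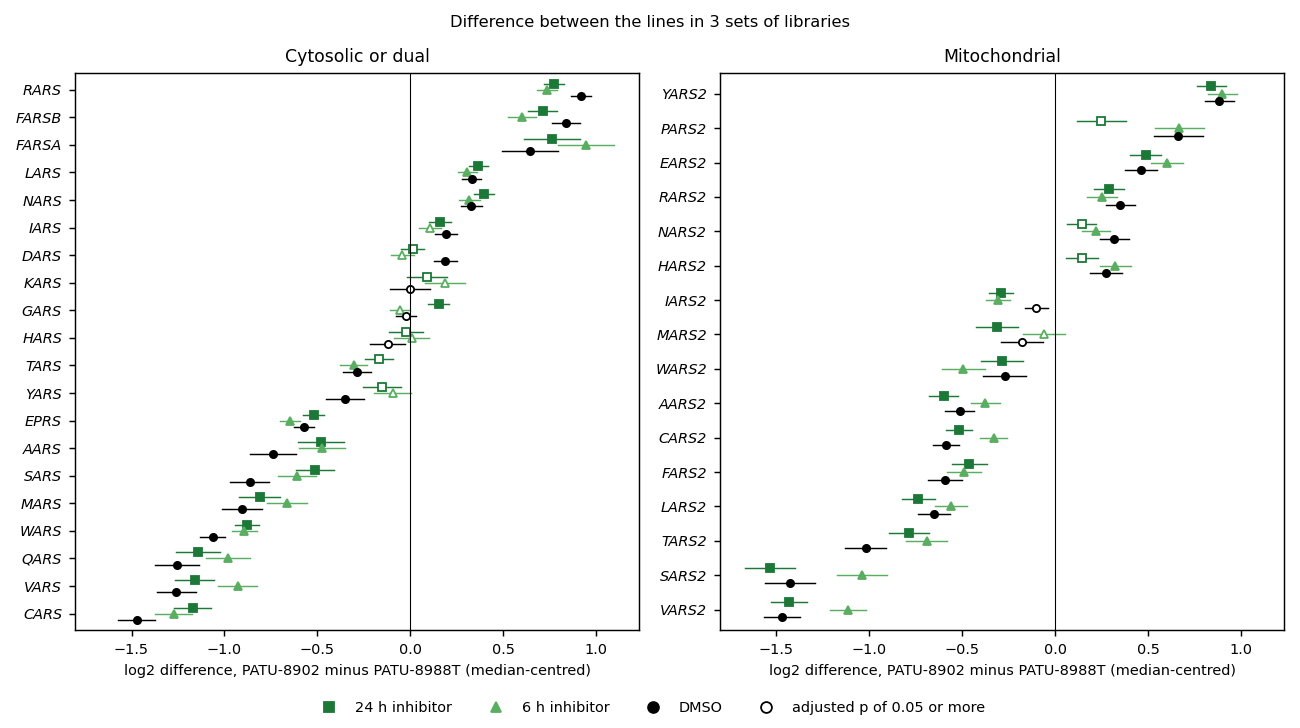
Median-centred log2 difference, PATU-8902 minus PATU-8988T, in the 24 h inhibitor, 6 h inhibitor and DMSO libraries, with 1 SE on each side. Filled symbols passed the adjusted threshold. RARS, FARSB and YARS2 lie farthest right and CARS, VARS2 and SARS2 farthest left among the DMSO values.

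Grouped by role, the genes of the multisynthetase complex went both ways, as did all tested genes. Of the latter, 34.4% were higher and 37.8% lower after centring, and 41.8% and 12.4% as deposited. Of the 8 synthetases of the complex, 4 were higher in PATU-8902 after centring (RARS, LARS, IARS and DARS) and 3 lower (QARS, MARS and EPRS), with KARS not passing. As deposited the same 4 were higher and 0 were lower, the calls of IARS and DARS with the limits given above. Among the scaffold genes of the complex AIMP1 was higher in PATU-8902, by 0.81 ± 0.26 as deposited and 0.31 ± 0.06 centred. EEF1E1 was lower after centring alone (-0.46 ± 0.08, against 0.04 ± 0.28 as deposited), and AIMP2 passed under neither scaling.

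The cytosolic and the mitochondrial enzyme for 1 amino acid can be set side by side in 13 pairs. After centring, where 86.1% of members and 72.2% of all tested genes passed, 8 pairs passed in the same direction. They were higher in PATU-8902 for asparagine and arginine (NARS and NARS2, RARS and RARS2), and lower for alanine, cysteine, serine, threonine, tryptophan and valine. In 2 pairs the partners passed in opposite directions: LARS was higher (0.33) and LARS2 lower (-0.65), and YARS lower (-0.35) and YARS2 higher (0.88). As deposited, where 47.2% of members and 54.2% of all tested genes passed, 3 pairs passed together, 2 higher (asparagine and arginine) and 1 lower (valine). The deposited call of VARS and the value of SARS2 have the limits given above. The centred call of WARS2 was kept in 2 of 6 fits that left out 1 library. TARS and WARS2 were above 0 as deposited (0.22 and 0.23). Agreement between partners was not tested.

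HARS and HARS2, whose shared promoter is printed above, did not keep 1 ratio. HARS had 2.71 to 3.24 times the FPKM of HARS2 in the 9 PATU-8902 libraries, against 3.48 to 4.45 times in the 9 PATU-8988T libraries, with no overlap. The pair was singled out for its promoter and the ratio was not tested. In GENCODE v29, 14.2% of HARS2 and 9.49% of HARS exon bases overlap on opposite strands, and no source used here says whether reads were assigned by strand.

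The ratio of the phenylalanyl subunits overlapped between lines, at 2.05 to 2.84 FARSB per FARSA in PATU-8902 and 1.65 to 3.47 in PATU-8988T. Within the PATU-8988T DMSO group alone it was 3.45, 1.96 and 1.65. That spread inside 1 group was nearly as wide as the range over all 18 libraries.

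**Figure D4:**
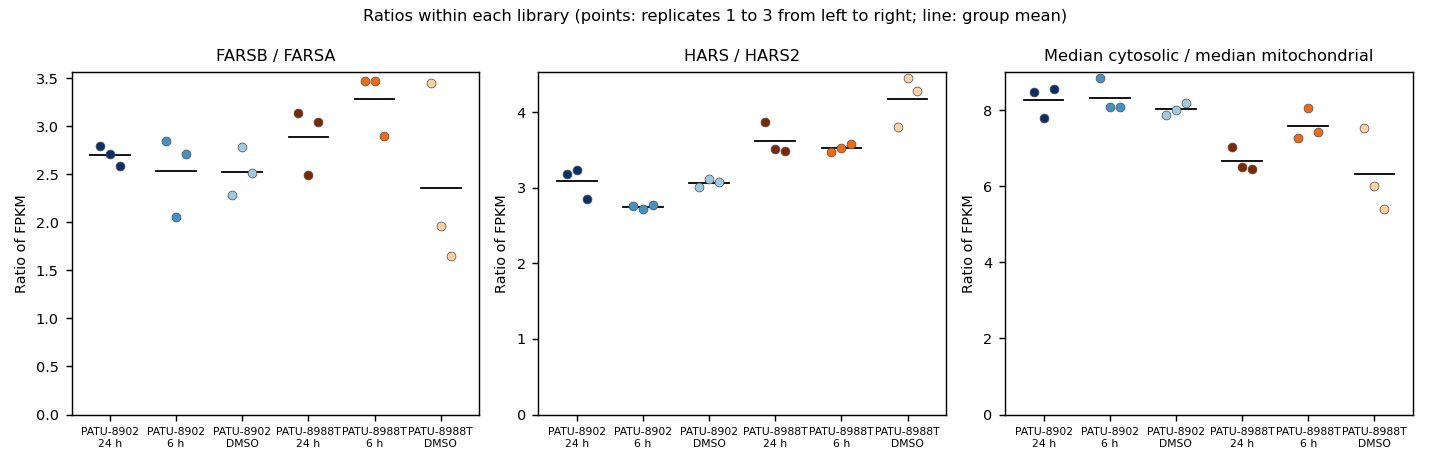
Ratios of FPKM within each library: FARSB over FARSA, HARS over HARS2, and the median cytosolic over the median mitochondrial gene. Points are libraries and lines group means. HARS over HARS2 lies at 2.71 to 3.24 in PATU-8902 and 3.48 to 4.45 in PATU-8988T, while FARSB over FARSA spans 1.65 to 3.45 within the PATU-8988T DMSO group.

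The synthetase genes with the printed ATF4-type element differed in direction between the lines. After centring, AARS (-0.74), CARS (-1.47), MARS (-0.91) and TARS (-0.28) were lower in PATU-8902, and IARS (0.19) and NARS (0.33) higher. As deposited CARS was lower, IARS and NARS were higher, and AARS, MARS and TARS did not pass (-0.24, -0.41 and 0.22). ATF4 itself passed under neither scaling, with 195 ± 43 FPKM in PATU-8902 DMSO and 138 ± 61 FPKM in PATU-8988T DMSO (SD, n = 3 each).

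Between the lines in DMSO, 34.4% of all tested genes were higher in PATU-8902 and 37.8% lower after centring, and 41.8% and 12.4% as deposited. In a list of ATF4 and its known targets, 25 genes could be tested. Of these, 5 were higher in PATU-8902 and 17 lower after centring (median -0.86), and 5 higher and 10 lower as deposited (median -0.36). PSAT1 and PHGDH, enzymes of serine synthesis, had the largest negative differences, at -7.40 ± 0.20 and -5.36 ± 0.25 as deposited. ASNS, the asparagine synthetase, had 46.0 ± 5.0 FPKM in PATU-8902 DMSO and 159 ± 45 FPKM in PATU-8988T DMSO. In contrast, the amino acid transporter SLC7A5 (3.24 ± 0.34) and the mTORC1 inhibitor DDIT4 (5.39 ± 0.29) were higher. None of these 25 genes passed in any of the 4 comparisons of inhibitor with DMSO, under either scaling.

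Of 11 further genes of aminoacylation, such as the mitochondrial amidotransferase subunits, 3 were higher and 4 lower in PATU-8902 after centring, and 3 higher and 0 lower as deposited. Of 9 genes listed as translation elongation factors, 1 was higher and 6 lower after centring, and 1 higher and 0 lower as deposited. Among all tested genes, 34.4% were higher and 37.8% lower after centring, and 41.8% and 12.4% as deposited. None of either list passed in a comparison of inhibitor with DMSO.

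Base composition moved with several of these values. The median GC content of the annotated transcripts (GENCODE v29) ran from 40.6% for RARS to 61.9% for SARS2 over the 36 genes. In PATU-8988T at 6 h the centred change against DMSO had a Pearson r of -0.81 with GC content across the 36 genes, and -0.92 across the 20 cytosolic ones, against -0.49 across the 10924 tested genes with a value. By rank the gap was narrower, with a Spearman rho of -0.79 across the members and -0.72 across the tested genes. FARSA, VARS and SARS2, the most GC-rich members, had the largest negative changes, and RARS, the least, one of the largest positive ones. The deviation of the first PATU-8988T DMSO library from its group had an r of -0.82 with GC content across the cytosolic genes, -0.62 across all 36 and -0.33 across the tested genes (Spearman rho -0.61 across the 36 and -0.47 across the tested genes).

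The line difference in DMSO had an r of -0.51 across the members, against -0.08 across all tested genes. For the SD within groups r was 0.86 across the cytosolic genes and 0.66 across the members, against 0.04. By rank the gaps were narrower. Spearman rho was -0.51 across the members and -0.17 across the tested genes for the line difference, and 0.65 and 0.20 for the SD. These correlations are across genes of the same libraries and describe them only. After a smooth trend on GC content was removed from each library, 11 members were higher and 19 lower in PATU-8902 in DMSO, where 35.1% of the tested genes were higher and 39.3% lower, and 0 members passed in any comparison of inhibitor with DMSO. Without adjustment, the members with a p below 0.05 then numbered 10 in PATU-8902 at 24 h, 2 at 6 h, 16 in PATU-8988T at 24 h and 7 at 6 h, beside 9.77%, 3.73%, 14.3% and 12.9% of the tested genes in that order. The cytosolic medians were -0.12, -0.03, -0.18 and -0.14 in that order.

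**Figure D5:**
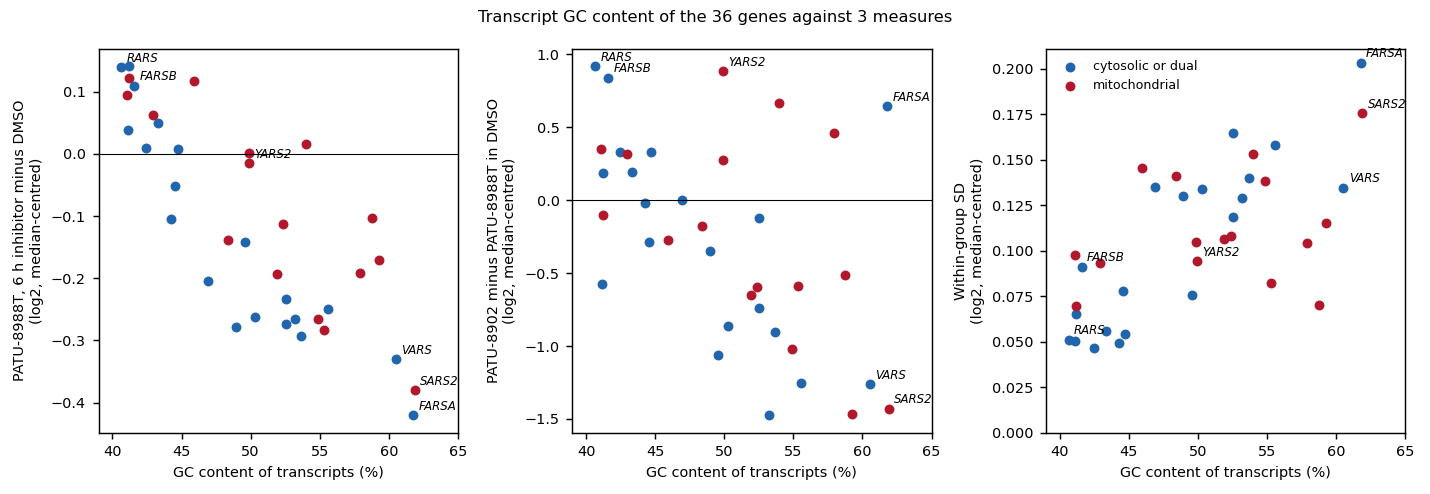
Transcript GC content (%) of the 36 genes against the centred change in PATU-8988T at 6 h (left), the centred line difference in DMSO (middle) and the SD within groups (right). Each point is a gene (blue: cytosolic or dual, red: mitochondrial). The left panel falls with GC content (r = -0.81), and the line difference does so more loosely (r = -0.51).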

How the data were processed

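RNA-seq values came from 18 libraries in 6 groups of 3. The authors deposited a single table of FPKM values per gene symbol. The submitters' processing notes name HISAT, Cufflinks, Cuffnorm and build hg19, and the series record states ERCC spike-in normalisation. Versions, strand settings and read counts are in none of the sources used here, and depth is unknown. The table held 26341 rows, 92 of them spike-ins. The 47 spike-ins averaging 1 FPKM or more deviated by -0.06 to 0.05 log2 per library.

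The 11477 genes averaging 1 FPKM or more were analysed as log2(FPKM + 1), which compresses changes at low levels. A limma fit (limma 3.58.1 in R 4.3.3) of the 6 group means, with a variance trend and 12 residual degrees of freedom over all libraries, gave 9 contrasts. P-values are 2-sided, adjusted by Benjamini-Hochberg over all tested genes, with 0.05 as threshold. All 36 synthetase genes passed the filter. The model was also run on simulated libraries. Their noise was drawn separately for each gene, and a change was added only in PATU-8902 at 24 h. They held no trend on GC content, so that run does not bear on the PATU-8988T comparisons.

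The members and lists were chosen with earlier results of these data known. Members past the threshold, or else those with the smallest p or largest change, are named. The comparisons of the lines at 24 h and 6 h, the GC correction (a spline with 4 degrees of freedom on GENCODE v29 transcript GC content) and the fit without PATU-8988T DMSO replicates 2 and 3 were chosen after seeing the data. Beyond the series record's term biological triplicates, no source used here says that libraries came from separate cultures, so p-values measure the spread between these libraries. Alternatives were another pseudocount, other filters, the compared groups alone, spike-in rescaling, cyclic loess, the replicate block and leaving out each library.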

Additional observations from a re-analysis of the deposited data

How the results depend on the processing

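The 0 members called in the comparisons of inhibitor with DMSO, of 24 h with 6 h and of the lines' effects stayed 0 under a pseudocount of 0.1, filters of none and 5 FPKM, the compared groups alone, spike-in rescaling, cyclic loess and GC correction where run. Leaving out 1 library gave, in PATU-8988T at 24 h, 0 to 26 members as deposited and 0 to 20 centred, at 6 h 0 to 20 centred, and in the line difference of the effect 0 to 3 at 24 h and 0 to 14 at 6 h centred. Each upper end came without the first PATU-8988T DMSO library, where 6514, 4680, 4884, 636 and 2308 of all genes passed in that order. Between the lines in DMSO, leaving out 1 library gave 12 to 16 members as deposited and 29 to 31 centred (5304 to 6760 and 7799 to 8661 of all genes). At 6 h it gave 6 to 11 and 28 to 29 (4830 to 6379 and 7510 to 7691), and at 24 h 14 to 21 and 25 to 27 (6962 to 8048 and 7697 to 7905).

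As deposited, the 17 members between the lines in DMSO were 9 with the compared groups alone and 31 with cyclic loess, and the 13 at 6 h were 30 with cyclic loess. Centred without a filter on low genes, 16 (DMSO), 17 (24 h) and 12 (6 h) passed. In that fit the median used for centring is taken over unexpressed genes as well. These counts are thus not on the same scaling as the other centred ones, and the cause of the difference was not tested. Shares of all genes under these alternatives are not given, so their counts do not describe the members in particular. In the line comparison at 24 h, 16 members were above 0 as deposited and below 0 centred, among them MARS (0.10 and -0.81) and WARS (0.03 and -0.88). Of members called as deposited there, the signs that turned were HARS -0.023 (centred) and -0.093 (cyclic loess), TARS -0.17 and -0.11, YARS -0.15 and -0.22, MARS2 -0.31 and -0.22, WARS2 -0.29 and -0.22, and DARS -0.046 (cyclic loess). Without PATU-8988T DMSO replicates 2 and 3, deposited changes turned at 24 h for CARS (0.025), SARS (0.10), YARS (0.13) and MARS (0.067), and at 6 h for SARS2 (0.45), FARSA (0.49), VARS (0.45), CARS2 (0.37) and MARS (0.46). With 1 library left out, the deposited change in PATU-8902 ran from -0.016 to 0.24 for WARS2, -0.27 to 0.010 for PARS2 and -0.35 to 0.056 for NARS2 at 24 h, and from -0.044 to 0.25 for VARS2 at 6 h. The cause was not tested.

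With the replicate number as a block, 18 members passed between the lines in DMSO as deposited and 30 centred, and 0 with the inhibitor. The share of all tested genes is not given for that fit. Same-numbered libraries did not deviate together, with correlations from -0.22 to 0.14, so the number was not taken as a pairing.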
